A study of Mus musculus with 38 samples.

Results

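Promoter activity in the soleus, a slow postural muscle of the lower leg, was compared between 4 fasted mice that were kept out of torpor (Dep) and 4 mice that kept their food (Fed). The 8 libraries were those whose titles name Dep or Fed, out of 38 libraries in the series, and each came from a different mouse. All animals were young adult male C57BL/6J mice with no transgene or deletion. In the Dep group food was removed on day 2 and each animal was touched gently whenever its oxygen consumption began to drop, until the muscle was taken late in the dark phase. In the Fed group food stayed in the cage on day 2 at the low ambient temperature. The Dep animals therefore differed from the Fed animals both in food and in repeated touching, and the effects of these on the muscle cannot be told apart. One label field of the Fed samples reads "starvation", whereas the design text and the paper describe these mice as fed, and that description was used. Transcription start sites were counted by nAnT-iCAGE, a cap analysis of gene expression without amplification in which 1 sequenced tag stands for the capped 5′ end of 1 transcript, so levels do not depend on transcript length. A promoter is here a cluster of such start sites. Levels are tag counts scaled to the same total in each library, corrected by the trimmed mean of M values (CPM below), and changes are log2 ratios of Dep to Fed.

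During a fast, skeletal muscle spares glucose for the brain by closing the entry of pyruvate into the mitochondrion and by oxidising fatty acids instead. Falling insulin releases the FOXO transcription factors, which act with the glucocorticoid receptor to switch on ubiquitin ligases and autophagy genes that free amino acids from muscle protein. Lipid synthesis driven by insulin and SREBP is shut down at the same time. A small rodent that is left undisturbed in the cold during such a fast lowers its metabolic rate and enters torpor, which the touching prevented here.

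The 8 libraries held between 18257657 tags (Fed 1) and 39176649 tags (Fed 4) in clusters, a depth at which 98.2% of the 10776 promoters tested had a mean of at least 1 CPM. Every library carried the marker genes of slow muscle fibres, whose summed level ran from 9512 to 13018 CPM in Dep and from 8565 to 12730 CPM in Fed, and none of the 6 markers passed the test. Several libraries stood apart in markers of other cells. Dep 1 had 132.6 CPM summed over 4 neutrophil markers against 0.2 to 0.9 CPM in the other libraries, and 4027 CPM of replication-dependent histone genes against 2161 to 2794 CPM. Fed 2 and Fed 3 had 682.5 and 511.0 CPM summed over 19 hepatocyte genes against 0.4 to 40.5 CPM elsewhere, the secreted liver protein gene *Alb* being at 218 and 129 CPM in these libraries and at 0.26 to 13.1 CPM in the others. Fed 2 also had 13747 CPM of red blood cell markers (2401 to 5020 CPM elsewhere), Fed 1 had 6752 CPM of fast fibre markers (2580 to 3738 CPM elsewhere), and Dep 3 had 1917 CPM of adipocyte markers (279 to 1000 CPM elsewhere). Between the groups, all 4 neutrophil markers and 6 of 58 histone genes passed as higher in Dep, and 11 of 19 hepatocyte and all 4 red blood cell markers as lower. The histone share of 10.3% was below the 18.2% of all genes that passed as higher. The hepatocyte share was 57.9%, where 21% of all genes passed as lower. Without Dep 1, Fed 2 and Fed 3 none of the neutrophil, hepatocyte and red blood cell markers passed, and 2 histone genes did. The histone genes turned with Dep 1, since without that library alone 3 passed as higher and 10 as lower, and none passed when scaled by tag totals. No red blood cell marker passed without Fed 2, without Dep 2 or without Dep 4. Summed macrophage (24.8 to 52.2 CPM), endothelial (184.4 to 222.4 CPM), tendon and fibroblast (1270 to 2723 CPM) and Schwann cell markers (65.7 to 398.5 CPM) overlapped between the groups, as did the 1 brown adipocyte marker measured. Single members passed nonetheless, namely 3 of 6 endothelial markers as lower and 1 as higher (66.7% against 39.2% of all genes), and 1 of 5 macrophage and 1 of 8 tendon and fibroblast markers as lower, and the part of these cells in the results was not tested. The hepatocyte and histone lists were chosen after the values were seen. In a whole muscle, fewer cells of a type and less RNA per cell cannot be told apart.

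**Figure D1:**
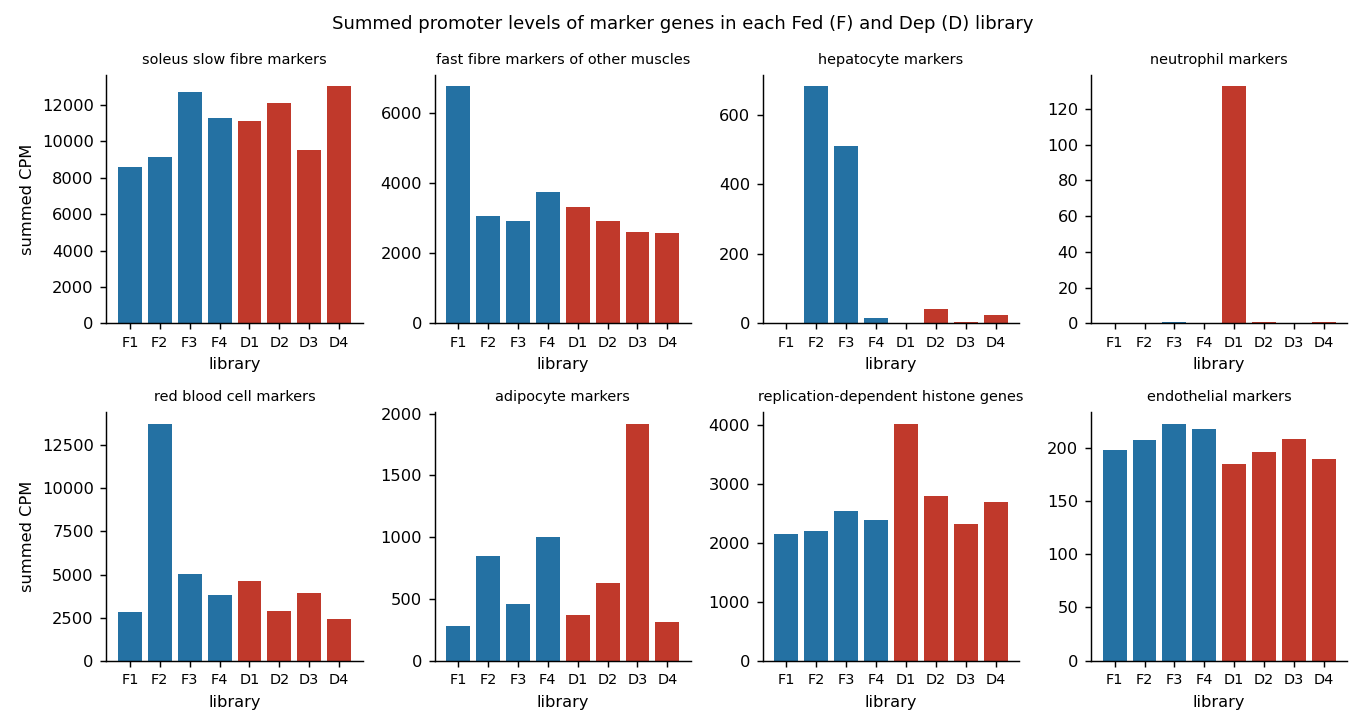
Summed CPM of the marker genes of each cell type, 1 bar per library from 0, with Fed 1 to 4 (F1 to F4) and Dep 1 to 4 (D1 to D4). Slow fibre markers lie between 8565 and 13018 CPM in all 8 libraries, while the neutrophil sum of Dep 1 (132.6 CPM) and the hepatocyte sums of Fed 2 and Fed 3 (682.5 and 511.0 CPM) lie far above the other libraries.

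Promoter sequences are shown for 7 genes on which the account turns, as the 120 bases that end just before the cluster's highest peak or the RefSeq start of the gene, whichever lies further upstream (RefSeq windows on GRCm38.p6, the assembly of mm10), written 5′ to 3′ on the strand of the gene. Capitals mark the TATA box letters TATAAA, the CCAAT box letters CCAAT and the core TGACG of sites bound by CREB and ATF proteins, each on either strand. Where TGACG occurs on both strands at the same place the capitals form the palindrome TGACGTCA. The first group holds promoters that rose, the upstream promoter of the coactivator gene *Ppargc1a* (chr5:51567728-51567847, minus strand), *Pdk4* (chr6:5496312-5496431, minus strand), the ubiquitin ligase gene *Trim63* (chr4:134314998-134315117, plus strand) and the stress response gene *Ppp1r15a* (chr7:45526269-45526388, minus strand). The second group holds promoters that fell, the lipid droplet gene *Pnpla3* (chr15:84167696-84167815, plus strand), the integrin gene *Itgb6* (chr2:60722646-60722765, minus strand) and *Tmem233* (chr5:116083270-116083389, minus strand).
Ppargc1a: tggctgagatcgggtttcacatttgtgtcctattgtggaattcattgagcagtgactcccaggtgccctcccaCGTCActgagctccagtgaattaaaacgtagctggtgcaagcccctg
Pdk4: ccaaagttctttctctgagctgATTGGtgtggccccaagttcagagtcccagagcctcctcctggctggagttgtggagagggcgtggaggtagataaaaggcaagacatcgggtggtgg
Trim63: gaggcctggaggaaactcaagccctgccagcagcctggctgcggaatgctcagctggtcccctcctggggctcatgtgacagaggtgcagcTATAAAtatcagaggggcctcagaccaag
Ppp1r15a: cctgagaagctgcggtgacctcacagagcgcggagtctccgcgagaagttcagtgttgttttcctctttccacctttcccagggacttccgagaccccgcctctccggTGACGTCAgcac
Pnpla3: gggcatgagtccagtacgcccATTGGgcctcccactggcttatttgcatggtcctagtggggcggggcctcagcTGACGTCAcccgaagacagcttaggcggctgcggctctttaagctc
Itgb6: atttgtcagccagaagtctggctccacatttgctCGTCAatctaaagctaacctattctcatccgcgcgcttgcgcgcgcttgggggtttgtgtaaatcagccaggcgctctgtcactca
Tmem233: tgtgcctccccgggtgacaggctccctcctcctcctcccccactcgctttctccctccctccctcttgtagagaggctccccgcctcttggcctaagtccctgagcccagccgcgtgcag
The TGACG core stood in promoters of both directions, and the TATA box letters in 1 of the 7 windows. Among 4657 tested promoters with such a window, TATAAA was found in 3.80%, against 7.23% of the 83 windows of promoters that rose by at least 1 on the log2 scale and 8.97% of the 145 that fell by as much. TGACG was found in 21.3% of all windows, 16.9% of those that rose and 13.1% of those that fell by this amount. CCAAT was found in 27.6%, 31.3% and 22.8%. Over all promoters that passed, whatever the size of change, 798 windows belonged to promoters that rose and 1021 to those that fell. TATAAA was in 3.51% and 4.11% of these, TGACG in 23.6% and 18.2%, and CCAAT in 29.6% and 25.5%. These shares describe letters in a fixed window and were not tested.

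Food removal without torpor was accompanied by a change in a large part of the measured promoters. With edgeR's quasi-likelihood test over the 28 libraries of the first run and a false discovery rate (FDR) under 0.05, 4160 of 10776 promoters (38.6%) passed, of which 2005 were higher in Dep (18.6%) and 2155 lower (20%). Most changes were small, with a median of 0.48 among those that rose and -0.60 among those that fell. A change of at least 1 on the log2 scale was met by 351 promoters that rose and 344 that fell, and a change of at least 2 by 111 and 101. The values of the 4 Dep and the 4 Fed libraries did not overlap in 3611 promoters (33.5% of those tested), 3193 of them among those that passed. The split between directions depended on the scaling. When libraries were scaled by their tag totals alone, the median change of all promoters moved from -0.00 to -0.23, and 486 promoters were higher and 2364 lower, so that 17.1% of calls were higher in place of 48.2%. Small rises of the gene lists below are therefore given with their count under that scaling. Without Fed 2 and Fed 3 the counts were 1520 higher and 1632 lower, and without Dep 1 in addition they were 1409 and 1547.

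The libraries also separated as wholes. The distance between 2 libraries, taken as the root mean square log2 difference over the 500 promoters that differed most between them, averaged 2.83 between a Dep and a Fed library and 2.05 between libraries of the same group. The difference was 0.777, and no other of the 70 possible divisions into 4 and 4 gave a larger one than the true groups (one-sided exact permutation p = 0.0286, which is as low as the design can go). Each of the 8 libraries was on average nearer to its own group than to the other. The margin was narrowest for Fed 1, at 2.56 to the Fed libraries and 2.69 to the Dep libraries, and Dep libraries lay closer together (1.73 to 1.97) than Fed libraries (2.01 to 2.56). Fed 2 and Fed 3 lay farthest from the other group, at 3.17 and 3.07. The part of their hepatocyte genes, and of the fast fibre genes of Fed 1, in these distances was not tested.

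Single promoters were named by the size of their change among those that passed, had no overlap between groups, an annotated symbol and a mean of at least 2 CPM in the higher group. The promoter with the largest rise that met this rule belonged to *Ppargc1a*, whose product PGC-1α is a coactivator of mitochondrial and fatty acid oxidation genes. Its upstream promoter (peak at chr5 position 51567727) was at 177, 174, 238 and 257 CPM in Dep 1 to 4, and at 0.69, 2.58, 3.31 and 5.57 CPM in Fed 1 to 4. All 4 fasted mice were far above all fed mice, with a log2 change of 6.04 ± 0.74 (SE, FDR 1.27e-06). *Pdk4*, the kinase that switches off pyruvate dehydrogenase, was at 4400, 5194, 5502 and 5306 CPM in Dep, and at 260, 582, 654 and 274 CPM in Fed. It was by far the most abundant of the promoters with a large rise, and it rose by 3.53 ± 0.31 (FDR 5.5e-08).

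The metallothioneins, small proteins that bind zinc and are induced by glucocorticoids and metals, rose together. *Mt2* was at 538, 198, 566 and 770 CPM in Dep against 7.46, 14.1, 15.2 and 15.8 CPM in Fed (5.29 ± 0.64). *Mt1* was at 640, 352, 734 and 942 CPM against 38.8, 47.7, 66.9 and 66.2 CPM (3.60 ± 0.41). Dep 2 was the lowest fasted mouse for both genes and also for *Hmox1*, the heme-degrading enzyme, at 55.4 CPM against 232, 185 and 376 CPM in Dep 1, 3 and 4. In Fed, *Hmox1* stayed within 5.24 to 5.81 CPM, and its change was 5.27 ± 0.89. The other promoters among the 12 with the largest rises were those of *Pde4d* (a cyclic AMP phosphodiesterase, 4.67 ± 0.49), *Atf3* (a stress-induced transcription factor, 4.52 ± 0.92), *Arpp19* (a regulator of protein phosphatase, 4.15 ± 0.40), *Lrch1* (3.62 ± 0.37), the keratin gene *Krt80* (3.44 ± 0.35) and the zinc transporters *Slc39a14* (3.42 ± 0.48) and *Slc30a2* (3.23 ± 0.51).

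The falls that met the same rule were led by genes of lipid synthesis and storage. Larger falls outside it included those of the liver genes *Cyp2c70* (-9.34, a fitted value against 0 in every Dep library), *Kng1* (-5.27) and *Tat* (-5.22), which were highest in Fed 2 and Fed 3. *Pnpla3*, a lipid droplet protein, was at 1.81, 1.47, 2.62 and 2.02 CPM in Dep and at 21.8, 37.9, 9.78 and 42.7 CPM in Fed (-3.82 ± 0.48, FDR 1.91e-06). *Fasn*, the fatty acid synthase, was at 7.2, 6.94, 10.46 and 5.46 CPM in Dep and at 62.4, 117, 30.3 and 138 CPM in Fed (-3.52 ± 0.57, FDR 3.88e-05). Fed 3 was the lowest fed mouse for both genes, yet above every Dep library. Both genes were highest in Fed 4 and Fed 2, and so were the summed adipocyte markers, at 279, 846, 460 and 1000 CPM in Fed 1 to 4. In Dep 1 to 4 these sums were 373, 626, 1917 and 316 CPM, and none of the 7 adipocyte markers passed between the groups. The part of fat cells in these falls was not tested. *G0s2*, an inhibitor of triglyceride lipase, was at 14.4, 27.6, 15.9 and 15.5 CPM in Dep and at 159, 93.8, 167 and 164 CPM in Fed (-2.99 ± 0.33). The cytokine signalling inhibitor *Cish* went from 13.5 to 48.3 CPM in Fed to 3.22 to 6.29 CPM in Dep (-2.98 ± 0.43), and *Ky*, a muscle protein needed for normal growth of postural muscle, from 23.8 to 43.3 CPM to 3.15 to 5.2 CPM (-2.93 ± 0.29). The remaining promoters of this group were those of *Lrrc38* (a subunit of potassium channels, -3.36 ± 0.40), *Tnk2* (a tyrosine kinase, -3.32 ± 0.44), *Acaca* (-3.12 ± 0.62), *Plcd4* (a phospholipase C, -3.03 ± 0.44), *Sec14l5* (-3.01 ± 0.37), *Tmem233* (-2.93 ± 0.37) and *Itgb6* (-2.86 ± 0.34). *Ky*, *Lrrc38*, *Tnk2*, *Plcd4*, *Sec14l5*, *Tmem233* and *Itgb6* were all highest in Fed 1, the library with the most fast fibre markers, and each passed without it. The 24 promoters of both directions passed the test under every alternative scaling, filter and test and without any single library.

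**Figure D2:**
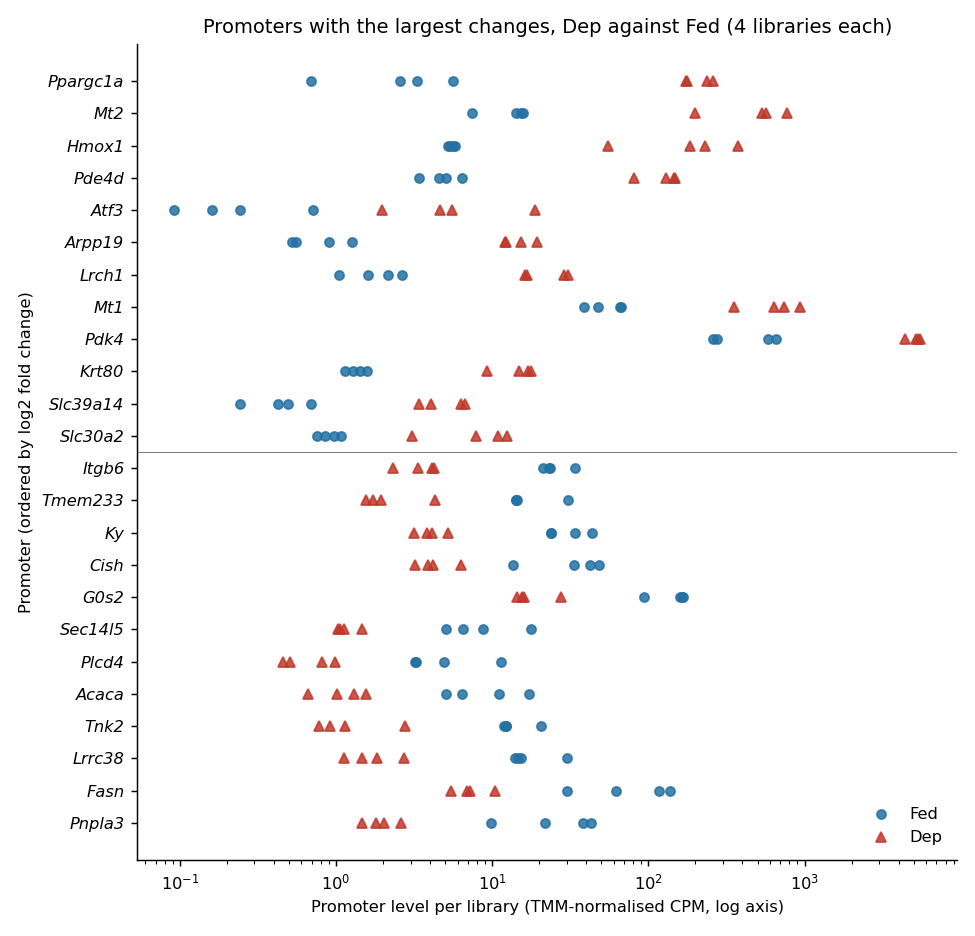
CPM (log axis) of the 12 promoters with the largest rise and the 12 with the largest fall, 1 point per library. For *Ppargc1a* the Dep libraries lie between 174 and 257 CPM and the Fed libraries between 0.69 and 5.57 CPM. The promoters shown were chosen to have no overlap between the groups.

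Several of these genes have more than 1 promoter, and the promoters of a gene changed by unequal amounts. The 2 *Ppargc1a* promoters lie 13.9 kb apart. The downstream one (peak at position 51553874), close to an annotated start of the gene like the upstream one, was at 38, 33.3, 43.2 and 30.4 CPM in Dep and at 54.0, 39.1, 47.5 and 41.2 CPM in Fed, ranges that overlap (-0.32 ± 0.16, FDR 0.115). When scaled by tag totals it passed as lower (-0.53, FDR 0.040). The upstream promoter therefore supplied 85.1 ± 3.1% of the tags of the gene's promoters in Dep and 6.5 ± 4.4% in Fed (SD, n = 4 each).

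The same contrast between promoters of 1 gene was seen in others of the list. Of 4 *Pde4d* promoters, the most downstream rose from 3.41, 4.54, 5.03 and 6.43 CPM in Fed to 81.1, 145, 148 and 130 CPM in Dep, its share of the gene going from 9.8 ± 3.4% to 70.7 ± 7.4%. The other promoters of *Pde4d* changed by -0.34 (FDR 0.066), -0.30 (FDR 0.124) and 0.46 (FDR 0.026). For *Lrch1* the share of the induced promoter went from 11.6 ± 2.4% to 66.1 ± 7.7%, and the other promoter, 48.0 kb upstream, changed by -0.33 (FDR 0.156). The induced promoter of *Slc39a14*, which brings zinc into the cell, went from 4.0 ± 1.8% to 26.4 ± 5.1%, and that of *Arpp19* from 0.9 ± 0.4% to 12.9 ± 2.7%. The other promoters of these genes were also above 0 but did not pass. That of *Slc39a14* was at 0.31 (FDR 0.064, groups not overlapping) and that of *Arpp19* at 0.19 (FDR 0.065).

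At *Slc30a2*, which exports zinc into vesicles, the 2 promoters moved in opposite directions only 0.812 kb apart. The upstream one rose from 0.75 to 1.07 CPM in Fed to 3.08 to 12.5 CPM in Dep, while the downstream one fell from 5.92 to 8.83 CPM to 3.39 to 5.47 CPM (-0.71 ± 0.25, FDR 0.028). Both promoters of *Atf3* rose, by 4.52 for the upstream one and by 1.93 ± 0.28 for the more active one 34.7 kb downstream, which was at 21.1, 30.4, 36.9 and 36.8 CPM in Dep and at 6.13, 8.36, 6.35 and 11.7 CPM in Fed. The upstream *Atf3* promoter was uneven among the fasted mice, at 1.96, 18.8, 5.55 and 4.60 CPM, with Dep 2 highest. At *Acaca*, which encodes the acetyl-CoA carboxylase of fatty acid synthesis, the most upstream of 3 promoters fell from 26.5 ± 6.3% to 6.2 ± 2.2% of the gene's tags. The most active promoter, the middle one, fell by 0.63 ± 0.17 on the log2 scale (FDR 0.004), and the most downstream one was at -0.41 and did not pass (FDR 0.182).

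Over all genes with several tested promoters (458 genes, 995 promoters), 30 had a promoter that rose and another that fell. All promoters rose in 23 genes and all fell in 54. In 212 genes a promoter passed while another did not, and in 139 none passed. Among all 10776 promoters tested, 2005 were higher and 2155 lower, so opposite calls within a gene can also arise between unrelated promoters. Whether 30 genes exceed the number that unrelated promoters would give was not tested. The counts of genes are those of the main scaling only. Among the 30 genes, the transcription factor gene *Casz1* lost activity at its upstream promoter (9.94 to 17.2 CPM in Fed, 5.56 to 6.57 CPM in Dep, -1.03 ± 0.16) and gained it at a promoter 96.7 kb downstream (2.42 to 3.90 CPM, then 10.01 to 11.2 CPM, 1.83 ± 0.21). *Dysf*, a membrane repair protein of muscle, fell at 2 upstream promoters (-0.50 ± 0.15 and -0.97 ± 0.16) and rose at the most downstream one (0.98 ± 0.14), whose share went from 16.7 ± 6.4% to 39.7 ± 1.8%. *Sgms1*, a sphingomyelin synthase, fell at its upstream promoter (-0.67 ± 0.15) and rose at one 177 kb downstream (1.17 ± 0.17). *Casz1*, *Dysf* and *Sgms1* were picked after their values were seen.

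**Figure D3:**
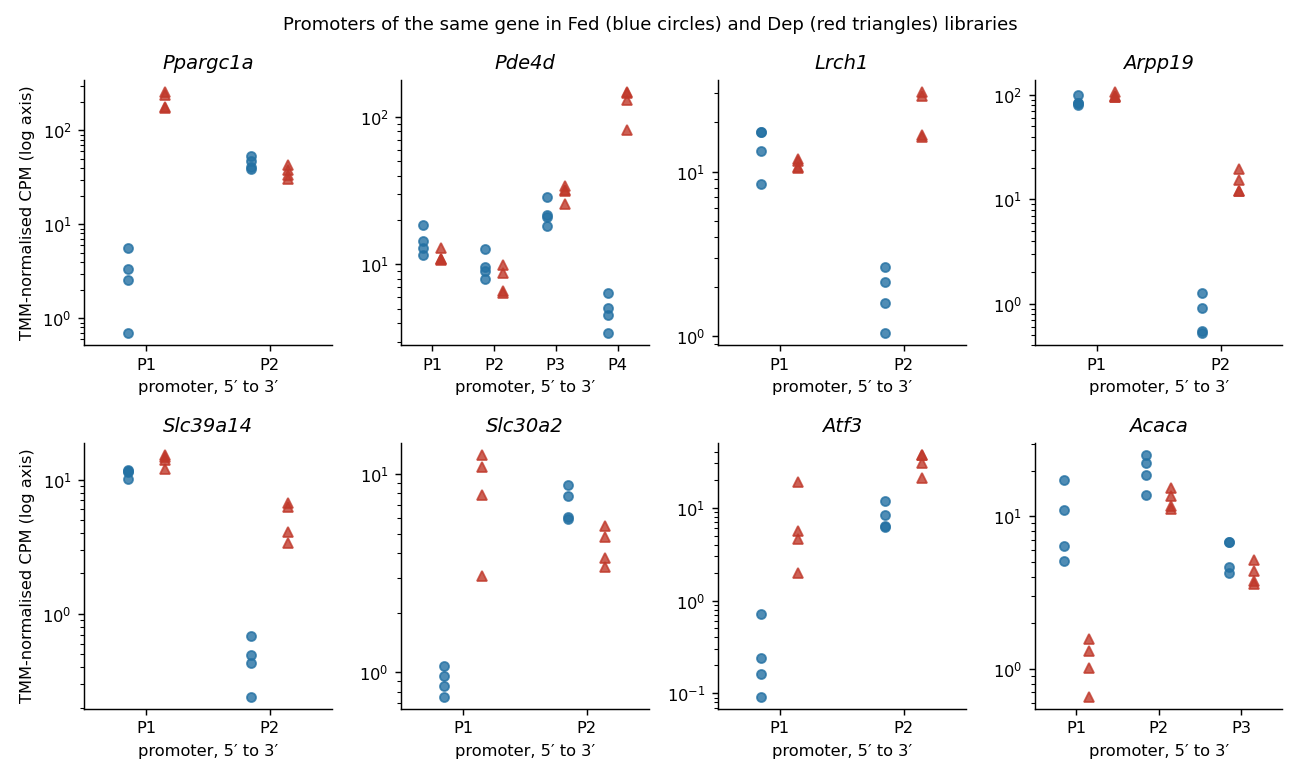
CPM (log axis) of every tested promoter of 8 genes, numbered from 5′ to 3′ along the gene, 1 circle per Fed and 1 triangle per Dep library. At *Ppargc1a* the upstream promoter separates the groups while the downstream one lies between 30.4 and 54.0 CPM in all 8 libraries.

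The genes of fuel choice were described by lists, with the most active promoter of each gene standing for it. Over 9054 genes taken this way, 39.2% passed, 18.2% higher and 21% lower, with a median change of -0.03. Of 13 genes of the pyruvate dehydrogenase complex and its regulators, 7 rose and 1 fell, with a median of 0.25 (2 rose and 2 fell when scaled by tag totals, median 0.01). Both directions were found among the phosphatases that activate the complex. *Pdp2* rose by 1.59 ± 0.20, from 3.84, 6.57, 8.13 and 6.92 CPM in Fed to 18.7, 21, 17.4 and 20.4 CPM in Dep. *Pdp1* fell by 1.13 ± 0.16 on the log2 scale, from 39.8, 32.3, 34.9 and 29.5 CPM to 20.9, 16.4, 11.7 and 13.4 CPM. Neither gene had overlapping groups.

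Fatty acid oxidation genes and targets of the PPAR receptors moved as a body. Of 36 measured, 29 rose and 1 fell, with a median of 0.52 (12 and 1 when scaled by tag totals, median 0.30). The largest rises beside *Ppargc1a* were those of *Acot1*, a thioesterase of fatty acyl-CoA (3.23 ± 0.33), the mitochondrial uncoupling protein gene *Ucp3* (2.22 ± 0.28), the carrier gene *Slc25a34* (2.20 ± 0.21) and *Angptl4*, an inhibitor of lipoprotein lipase (2.18 ± 0.46). *Ucp3* was at 65.4, 65.0, 68.8 and 59.1 CPM in Dep and at 12, 17.4, 18.3 and 7.92 CPM in Fed. The enzymes of the β-oxidation spiral moved less, for example *Acadvl* by 0.56, *Hadha* by 0.65 and *Cpt1b*, which admits fatty acids to the mitochondrion, by 0.44. The lipase gene *Pnpla2* rose by 1.48 and the receptor gene *Ppara* by 1.34, while *Ppard* was at -0.18 and did not pass. *Ppargc1b*, a relative of *Ppargc1a*, was the member that fell (-0.93 ± 0.28).

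Fatty acid and triglyceride synthesis genes went the other way, with 14 of 21 lower and 2 higher (median -0.79), and the part of fat cells was not tested. Beside *Pnpla3*, *Fasn* and *G0s2*, *Angptl8*, a gene induced by feeding, fell by 2.97 ± 0.77 on the log2 scale, though at levels of 0.37 to 1.02 CPM in Fed. *Acly*, which supplies acetyl-CoA for lipid synthesis, was at 24.2, 42.1, 23.6 and 55.0 CPM in Fed and at 11.3, 11.7, 9.97 and 10.4 CPM in Dep (-1.75 ± 0.25). The 2 members that rose were *Acacb* (0.77 ± 0.12), whose malonyl-CoA restrains fatty acid entry into mitochondria, and *Lpin1* (0.75 ± 0.19), which is also a coactivator of PPAR genes. Of 13 cholesterol genes 8 fell and none rose (median -0.57), among them the synthesis enzyme *Mvd*, which fell by 1.17 on the log2 scale. The counts of lower genes in these 2 lists were 15 and 8 when scaled by tag totals.

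Among 26 genes of glucose uptake, glycolysis and glycogen, 10 fell and 3 rose (median -0.25, and 12 and 2 when scaled by tag totals). Without Fed 1 the number that fell was 6 and the median -0.15. *Pfkfb3*, which makes an activator of glycolysis, fell by 1.32 ± 0.31 on the log2 scale, and *Ppp1r3a*, the muscle glycogen-targeting subunit of protein phosphatase, by 0.74 ± 0.12. *Tbc1d1* and *Tbc1d4*, which hold glucose transporters inside the cell until insulin or contraction acts, fell by 1.03 ± 0.29 and 0.70 ± 0.16. The 3 that rose were the basal glucose transporter *Slc2a1*, *Ugp2*, which makes UDP-glucose, and the hexokinase *Hk2*. *Slc2a1* was at 44.4, 45.2, 43.0 and 51.9 CPM in Dep and at 9.37, 14.2, 12.8 and 10.6 CPM in Fed (1.97 ± 0.23), whereas the insulin-responsive transporter *Slc2a4* was at -0.01 and did not pass. *Ugp2* rose by 0.94 ± 0.12 and *Hk2* by 0.56 ± 0.12.

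Of 19 FOXO targets and atrophy genes, which serve protein breakdown, 11 rose and 1 fell (median 0.79, and 9 and 1 when scaled by tag totals). Without Dep 3, the library with the most adipocyte markers, 10 rose and the median was 0.49. *Trim63*, the muscle ubiquitin ligase MuRF1, was at 678, 418, 1006 and 627 CPM in Dep and at 177, 163, 196 and 166 CPM in Fed (1.96 ± 0.27). The cell cycle inhibitor *Cdkn1a* rose by 2.53 ± 0.29, *Cebpd* by 1.89 ± 0.32, the sestrin *Sesn1* by 1.75 ± 0.26, and *Fbxo32*, the ligase atrogin-1, by 1.00 ± 0.19. *Sesn3* was the member that fell (-0.42 ± 0.10), and *Foxo1* itself, at 0.52 ± 0.22, did not pass (FDR 0.058).

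Autophagy genes were divided. Of 29 measured, 11 rose and 4 fell, with a median of 0.04 (4 and 3 when scaled by tag totals). The number that fell was 2 without Dep 2, Dep 4, Fed 1 or Fed 2. *Gabarapl1*, a ubiquitin-like protein of the autophagosome membrane, was at 318, 354, 390 and 412 CPM in Dep and at 51.2, 58.2, 72.9 and 58.3 CPM in Fed (2.61 ± 0.23). The cargo receptor *Sqstm1* rose by 1.30 ± 0.14, *Atg13* by 1.02 ± 0.13 and *Map1lc3b* by 0.97 ± 0.13. The genes that fell were *Tfeb*, a regulator of lysosome genes (-0.58 ± 0.16), *Lamp1* (-0.42 ± 0.11), *Uvrag* (-0.27 ± 0.11) and *Map1lc3a* (-0.24 ± 0.09). Of 39 proteasome genes 23 rose and 3 fell (median 0.27), but only 2 rose and 3 fell when scaled by tag totals. *Psmd11* rose most, by 0.91 ± 0.11, and the 3 that fell were the immunoproteasome genes *Psmb10* and *Psmb8* and the activator gene *Psme1*.

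Genes of insulin, IGF and mTOR signalling moved in both directions. Of 18 insulin and IGF genes 4 rose and 7 fell (median -0.07, and 1 and 7 when scaled by tag totals). Without both Fed 2 and Fed 3 the numbers were 2 and 4, and 2 rose without Dep 3 or without Fed 3. *Irs2*, an insulin receptor substrate, rose by 1.68 ± 0.27, from 24.2, 26.5, 32.3 and 27.1 CPM to 74.1, 72.4, 138 and 66.8 CPM. The growth factor gene *Igf1* fell by 1.61 ± 0.36 on the log2 scale, from 10.1, 25.6, 17 and 21.6 CPM to 5.96, 7.76, 6.54 and 4.14 CPM, and *Igfbp5* by 1.39 ± 0.20. Of 19 mTOR pathway genes 7 rose and 4 fell (median 0.00). The inhibitors *Ddit4* and *Eif4ebp1* rose by 2.24 ± 0.46 and 1.20 ± 0.15, while the related *Ddit4l* fell from 149, 103, 154 and 105 CPM to 29.2, 22.7, 11.7 and 11.2 CPM (-2.77 ± 0.35). Under scaling by tag totals these counts were 1 and 7 for the insulin list and 3 and 5 for the mTOR list.

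Targets of the glucocorticoid receptor included 12 of 21 that rose and 2 that fell (median 0.78, and 8 and 2 when scaled by tag totals). Without Dep 3 the number that rose was 9 and the median 0.51. Beside the metallothioneins and *Ddit4*, *Tsc22d3* rose by 1.23, *Arrdc2* by 1.13 and *Fkbp5* by 0.78. The receptor gene *Nr3c1* itself fell, from 14.8, 19.2, 20.1 and 17.3 CPM in Fed to 9.58, 9.0, 9.47 and 6.06 CPM in Dep (-1.06 ± 0.16). *Sgk1* and *Klf9*, also on this list, were at 0.17 and 0.23 and did not pass. Several members stand on other lists as well, namely *Fbxo32*, *Klf15*, *Cebpd*, *Angptl4*, *Ddit4*, *Pik3r1*, *Per1*, *Mt1* and *Mt2*.

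Of 25 immediate early genes, whose products answer a stimulus within minutes, 12 rose and none fell (median 0.55, and 7 when scaled by tag totals). The members that rose most were *Maff* (2.33 ± 0.35), *Myc* (2.06 ± 0.27), *Atf3* and *Csrnp1* (1.77 ± 0.25). The classical members *Fos*, *Egr1*, *Nr4a1* and *Jun* were at 0.44, -0.37, -0.18 and 0.09 and did not pass. Of 17 genes of the integrated stress response 6 rose and 2 fell (median 0.21, and 2 and 2 when scaled by tag totals). Without both Fed 2 and Fed 3, 3 rose and 1 fell. *Ppp1r15a*, which restores translation after stress, was at 60.2, 62.8, 73.3 and 64.0 CPM in Dep and at 16, 17.6, 17.2 and 20.01 CPM in Fed (1.87 ± 0.17), and *Atf4* rose by 1.03 ± 0.13. *Ddit3*, which encodes the stress factor CHOP, fell (-0.40 ± 0.15).

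Heat shock and chaperone genes rose in 9 of 23 cases and fell in 1 (median 0.24, and 4 and 1 when scaled by tag totals). The share that passed was 43.5%, beside 39.2% of all genes. Without Fed 1 none fell and the median was 0.15. *Hspa5*, the chaperone of the endoplasmic reticulum, rose by 1.23 ± 0.23 and the small heat shock gene *Hspb1* by 1.15 ± 0.15. Of 18 clock genes 6 rose and 3 fell (median -0.07, and 3 and 4 when scaled by tag totals). Without Dep 3, 6 rose and 6 fell. *Per1*, which also responds to glucocorticoids, rose by 1.39 ± 0.26, whereas *Bhlhe40* and *Per3* fell (-1.07 ± 0.18 and -1.04 ± 0.22). The clock output genes *Dbp* and *Nr1d1*, at -0.15 and -0.21, did not pass.

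None of 9 slow fibre genes passed, with a median of 0.12 (-0.15 when scaled by tag totals). Of 12 fast fibre genes 2 fell, *Mybpc2* (-1.74 ± 0.58, FDR 0.020) and *Actn3* (-1.71 ± 0.64, FDR 0.037). Both were highest in Fed 1, the library with most fast fibre markers, at 570 and 2081 CPM, and without that library their FDR was 0.135 and 0.239. Both are themselves among the 6 fast fibre markers summed above, so their peak in Fed 1 is in part that sum itself. Of 16 calcium handling and thermogenesis genes 4 fell and 2, *Ucp3* and *Ucp2*, rose (median -0.16, and 5 and 1 when scaled by tag totals), the calcium release channel *Ryr1* falling by 0.30 ± 0.08 on the log2 scale. The share that passed was 37.5%, close to the 39.2% of all genes. The cold-shock genes *Cirbp* and *Rbm3* were at -0.15 and 0.16 and did not pass. Genes of the neuromuscular junction and of denervation were divided, with 3 of 14 higher and 4 lower, so that 50.0% passed (median 0.01, and 2 and 5 with a median of -0.22 when scaled by tag totals). The synapse organisers *Musk* and *Dok7* rose by 1.05 ± 0.15 and 0.97 ± 0.18. The repressor *Hdac9* fell from 11.1, 10.01, 8.83 and 7.87 CPM to 2.19, 3.17, 1.13 and 1.21 CPM (-2.29 ± 0.31) and the myogenic factor *Myod1* from 21.8, 22.8, 23.8 and 21.8 CPM to 6.83, 7.07, 4.52 and 7.53 CPM (-1.80 ± 0.35).

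The large groups of mitochondrial and ribosomal genes showed small rises that depended on the scaling. Of 93 respiratory chain genes 47 rose and 1 fell with a median of 0.24, but 2 rose and none fell, with a median of 0.00, when scaled by tag totals. Of 82 ribosomal protein genes 28 rose and none fell with a median of 0.16, but under that scaling 1 fell, none rose and the median was -0.07. With the main scaling 34.1% of the ribosomal list passed, all as higher, where 39.2% of all genes passed and 18.2% as higher. The respiratory count was 29 without Dep 4, 23 without Fed 1, 21 without Fed 2 and 67 without Fed 3. Of 17 genes that use ketone bodies and branched-chain amino acids 6 rose and 1 fell (median 0.22, and 1 and 1 when scaled by tag totals), led by *Dbt* (0.81 ± 0.12), a subunit of the branched-chain keto acid dehydrogenase. In this list 41.2% passed, close to the 39.2% of all genes. The member that fell was *Oxct1*, which activates ketone bodies (-0.18 ± 0.07). Among 13 metallothionein and zinc transporter genes 5 rose and 3 fell (median -0.04, and 2 and 4 when scaled by tag totals), the exporter *Slc30a1* rising by 0.84 ± 0.20 beside the metallothioneins.

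**Figure D4:**
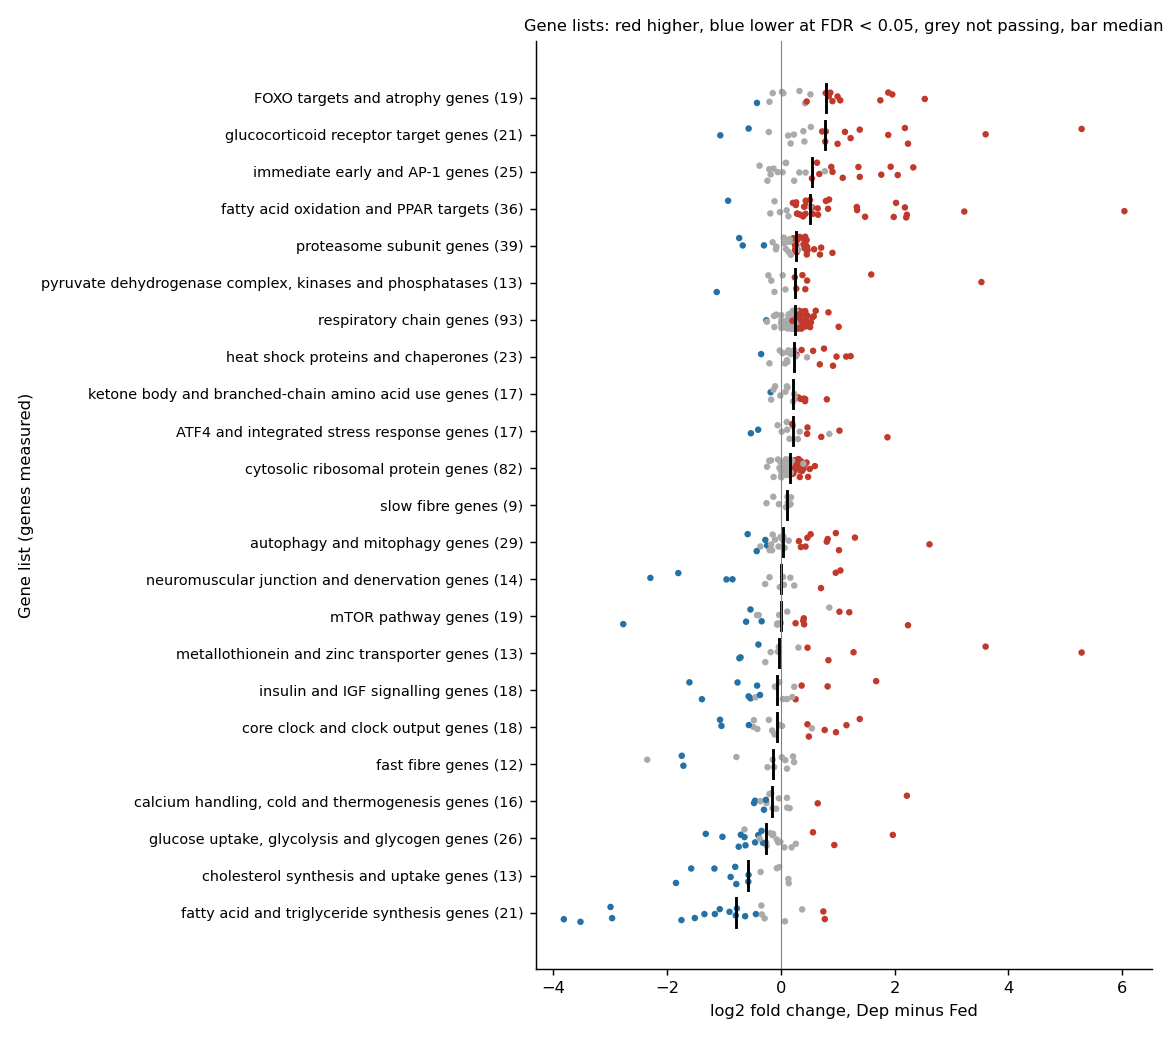
Log2 change of Dep against Fed for the members of each list, 1 point per gene at its most active promoter, with the list's median. Fatty acid oxidation genes centre on 0.52 and lipid synthesis genes on -0.79, and the medians of the respiratory chain (0.24) and ribosomal (0.16) lists become 0.00 and -0.07 when libraries are scaled by tag totals.

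Start site clusters far from any annotated 5′ end, more than 500 bases away, were counted too. Of 1185 tested, 32.2% passed, 271 being higher in Dep (22.9%) and 111 lower (9.37%), with a median change of 0.29 (177 and 142, median 0.07, when scaled by tag totals). Such clusters held 32.6, 31.1, 24.5 and 38.5% of the tags in Dep 1 to 4 and 31.2, 35.4, 17.5 and 22.9% in Fed 1 to 4, and the part of this share in the counts was not tested. Without Dep 4 the counts were 201 and 88, and without Dep 1, Fed 2 and Fed 3 they were 176 and 97. Within *Pdk4*, 7 of 7 such clusters on the gene's strand rose, by 3.08 to 4.11, next to the rise of 3.53 at the gene's promoter. Clusters in exons of *Trim63* and *Ppargc1a* rose by 2.71 ± 0.37 and 2.66 ± 0.46. Whether such clusters are starts of transcription or recapped fragments of the transcript was not tested. Among those outside the named genes, a cluster in an intron of *Adprhl1* (chr8:13227825-13227998) was at 13.7, 26.3, 32.9 and 28.6 CPM in Dep and under 2 CPM in each Fed library, with a change of 4.49 ± 0.47. An intergenic cluster (chr6:90601872-90602100) fell from 25.3, 16.7, 18.1 and 17.4 CPM in Fed to 2.98, 2.16, 1.56 and 1.62 CPM in Dep (-3.21 ± 0.35). Both were picked for the size of their change.

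The change from Fed to Dep was set beside that from Pre to Mid, with which it shares no library. Pre were fed mice of day 1 (4 libraries), and Mid were fasted mice of day 2 left free to enter torpor (8 libraries). By the paper's account some Mid mice were torpid when sampled and others were between bouts of torpor. It describes the metabolism of the Dep mice as similar to that of the non-torpid Mid mice. Of the promoters that rose from Fed to Dep, 74.8% were higher in Mid than in Pre, where 50.9% of all promoters were, and of those that fell 73.6% were lower. From Pre to Mid 3253 promoters passed (30.2%). Both comparisons called 1661 promoters in the same direction, 39.9% of the Dep and Fed calls and 51.1% of the Mid and Pre calls, and 108 in opposite directions. In a second sequencing run with other mice (5 Mid, 2 Pre) the shares of the same sign were 81.9% and 85.8%.

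A test of the difference between the 2 changes passed for 1467 of 10776 promoters (13.6%), 730 with Dep against Fed above Mid against Pre (6.77%) and 737 below (6.84%). This count was 744 without Dep 2, 512 without Dep 4, 422 without Fed 1, 497 without Fed 2 and 1153 without both Fed 2 and Fed 3, and 19 promoters passed when scaled by tag totals. Respiratory chain and ribosomal genes stood out in number. They rose slightly from Fed to Dep and had medians of -0.16 in both lists from Pre to Mid, so that the difference was above 0 in 49 of 93 and 40 of 82, and below 0 in none. The count of respiratory chain genes was 19 without Dep 4, without Fed 1 or without Fed 2, and that of ribosomal genes 26, 20 and 21. No member of either list passed when scaled by tag totals, with median differences of 0.23 and 0.17 where all promoters had -0.17. Among the named genes, *Slc2a1* rose by 1.97 in Dep and by 1.09 in Mid, *Map1lc3b* by 0.97 and 0.37, and the small heat shock gene *Hspb8* by 0.92 and 0.43. *Ky* fell by 2.93 on the log2 scale in Dep and by 1.81 in Mid, and the adjusted p of the difference was between 0.023 and 0.045 for these 4 genes. *Per3*, *Tbc1d4* and *Ryr1* were lower in Dep than in Fed and at -0.07, 0.06 and 0.10 from Pre to Mid. The changes of *Pdk4* (3.53 and 3.42), *Fasn* (-3.52 and -3.09) and *Trim63* (1.96 and 2.42) did not pass this test. Of 142 named promoters of the largest changes and of the lists, 20 passed. In all 20 the change from Fed to Dep was farther from 0 than that from Pre to Mid, or opposite to it. Such differences are favoured here, since the named promoters were chosen for their change from Fed to Dep or as list members. Among all Dep and Fed calls, 24.9% passed this test. Of 39 promoters that rose by at least 1.5 from Fed to Dep, were not higher in Mid than in Pre and passed the test of the difference, 33 were clusters far from an annotated 5′ end, and 29 of these were highest in Dep 4 among the fasted mice. The most active, in an intron of *Jarid2* (chr13:44869548-44869775), was at 285, 389, 250 and 1325 CPM in Dep and at 47.1, 50.4, 20.1 and 16.5 CPM in Fed.

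The same was done with HiT, mice kept on day 2 at a high ambient temperature at which torpor does not occur. The paper describes them as fasted while the design text says that they had food, and the paper's description was used. The change from Pre to HiT (4 against 4 libraries) shares no library with Dep and Fed. Of the promoters that rose from Fed to Dep 74.2% were higher in HiT than in Pre (54.4% of all promoters), and of those that fell 69.5% were lower. From Pre to HiT 3604 promoters passed (33.4%). Both comparisons called 1400 promoters in the same direction and 303 in opposite directions. The difference passed for 2473 promoters (22.9%), 1091 with Dep against Fed above HiT against Pre (10.1%) and 1382 below (12.8%). It passed for 661 when scaled by tag totals and for 1951 without Fed 2 and Fed 3.

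Of the 142 named promoters, which were chosen for their change from Fed to Dep or as list members, 47 differed from HiT. The upstream *Ppargc1a* promoter rose by 6.04 in Dep and by 2.32 in HiT. *Cdkn1a* rose by 2.53 and 0.74, *Gabarapl1* by 2.61 and 1.44, *Slc2a1* by 1.97 and 0.59, and *Pde4d* by 4.67 and 2.84. *Igf1* fell by 1.61 on the log2 scale in Dep and was at -0.01 in HiT. *Bdh1*, which interconverts ketone bodies, rose by 0.43 in Dep and fell by 1.06 on the log2 scale in HiT, and *Hk2* rose by 0.56 and fell by 0.59. The difference was above 0 in 80 of 93 respiratory chain genes, whose median from Pre to HiT was -0.37, in 18 of 36 fatty acid oxidation genes and in 9 of 17 ketone and amino acid genes, and below 0 in none of these. Other lists leaned the other way under the main scaling. The difference was below 0 in 6 of 25 immediate early, 5 of 14 neuromuscular and 4 of 13 cholesterol genes. It was also below 0 in 3 of 13 metallothionein and zinc transporter genes, and above 0 in 1 gene of each of these lists. When scaled by tag totals, 7 respiratory chain, 3 fatty acid oxidation and 1 of the ketone and amino acid genes passed, all above 0, and the median difference of the respiratory chain was 0.55 in place of 0.61. Markers of other cells moved in HiT as well. Macrophage markers had a median of 1.97 from Pre to HiT, with the difference below 0 in 5 of 5, and histone genes one of 3.19, with the difference below 0 in 43 of 58, and their part in the other differences was not tested. The changes of *Pdk4* (3.38 in HiT), *Mt2* (4.51), *Fasn* (-4.23) and *Ucp3* (2.49) did not pass the test of the difference. The Dep and Fed animals differ in food and touching, the Mid, HiT and Pre animals in food, temperature, torpor or day, and these cannot be told apart by the differences.

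**Figure D5:**
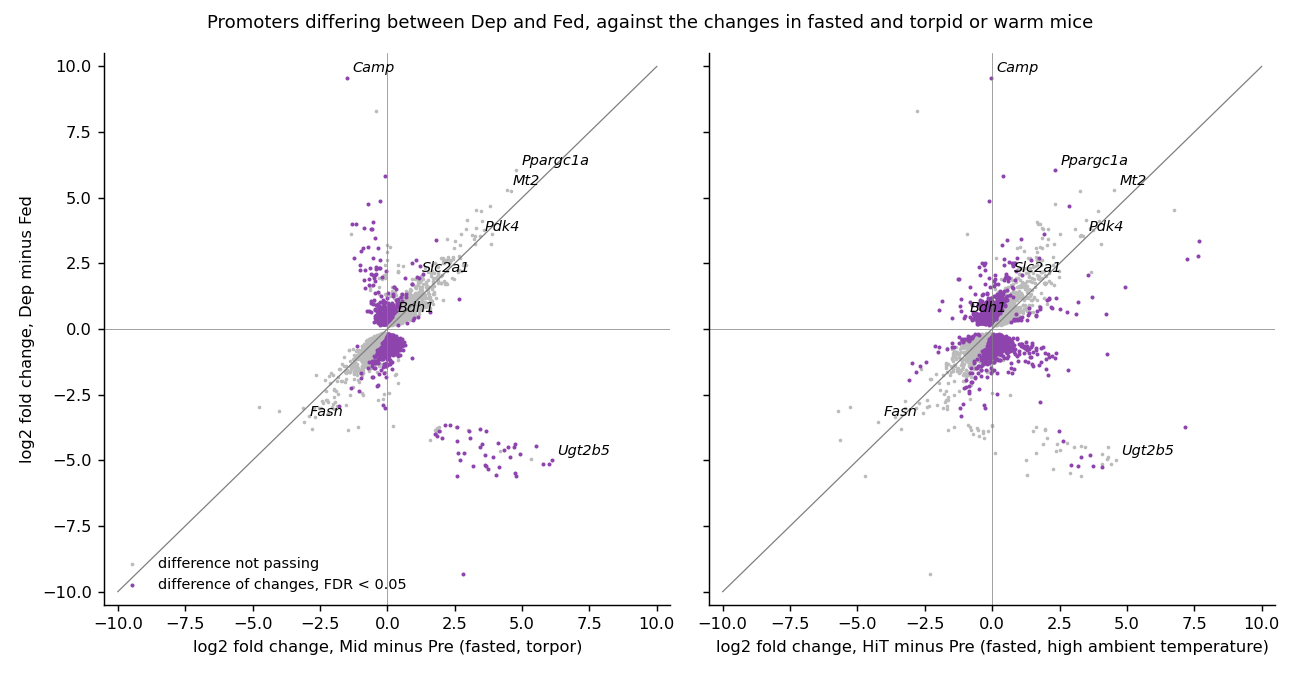
Log2 change of Dep against Fed (vertical) beside the change of Mid against Pre (left) and of HiT against Pre (right), 1 point per promoter called between Dep and Fed, coloured where the difference of the 2 changes passed. Points near the diagonal changed alike, the upstream *Ppargc1a* promoter lies at 6.04 on the vertical axis and at 4.78 for Mid and 2.32 for HiT, and the hepatocyte gene *Ugt2b5* lies at -5.00 on the vertical axis and at 6.10 for Mid, and the neutrophil gene *Camp* at 9.57 and -1.48.

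The fed mice of day 2 and of day 1 were also compared. Between Fed and Pre 1207 promoters passed (11.2%), 634 higher in Fed (5.88%) and 573 lower (5.32%). This comparison shares its Fed libraries with that of Dep and Fed. Its count hung on single libraries, being 227 without Fed 1, 192 without Fed 2, 1973 without Fed 3 and 775 without both Fed 2 and Fed 3, and when scaled by tag totals 6 promoters passed.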

How the data were processed

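The authors made nAnT-iCAGE libraries from soleus RNA, mapped the reads to mm10 with BWA and HISAT2, clustered the 5′ ends with PromoterPipeline and associated clusters with the closest Ensembl or RefSeq transcripts; versions are not given in the sources used here. The deposited counts are tags per cluster and library, and the authors' TPM values, the counts scaled by the library's total, were used only to check the counts. Here a cluster was assigned to the gene whose GENCODE start lay nearest on its strand within 500 bp. Clusters were tested with edgeR 4.0.16 in R 4.3.3 (quasi-likelihood test, TMM scaling, Benjamini-Hochberg adjustment over 10776 clusters). The model was fitted over the 28 first-run libraries with group as the only term. The main fit applied no filter on low counts and dropped only empty clusters. Such a filter was used as an alternative, which left 10670 clusters. Tag totals of the Dep and Fed libraries were 18257657 to 39176649.

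The same fit gave the differences between 2 changes. Alternatives were DESeq2 1.42.0, a likelihood ratio test, other scalings and filters, other sets of libraries and leaving out each library. Named promoters were the 12 with the largest log2 change per direction (FDR under 0.05, mean of at least 2 CPM in the higher group, no overlap, annotated symbol, 1 per gene), up to 4 called members per direction of each list or 2 members where none passed, *Atf3*, *Ppargc1a* and *Pdk4*, and the 4 per direction with the largest difference of changes. The members, lists and rules were chosen with earlier results of these data known. On simulated counts with 200 of 10775 promoters changed by 1 on the log2 scale, 174 (87%) were recovered with 7 false calls. In the data 38.6% of promoters passed, most with smaller changes, and the simulation does not cover that setting. Replicate numbers did not pair the Dep and Fed samples. No pair of libraries agreed within sampling noise. Animals were separate, and counting intervals were not used, since the spread between mice sets the errors. The values of a few single genes are not reported here.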

Additional observations from a re-analysis of the deposited data

Results flagged for a closer look

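In a group of 4 libraries a value was set apart where its gap to the nearest other was above Dixon's 95% critical value. This was so in 7 of 82 groups tested (8.54%), where chance gives about 1 in 20. The summed neutrophil markers of Dep 1 were at 132.6 CPM, with *Camp*, an antimicrobial peptide of neutrophils, at 60.5 CPM there and at 0 in the other Dep libraries. *Tmem233* was highest in Dep 1 among the Dep libraries (4.30 CPM) and in Fed 1 among the Fed libraries (30.7 CPM). Fed 1 was also apart from the other Fed libraries for *Tnk2* (20.7 CPM) and *Lrrc38* (30.2 CPM). *G0s2* was apart in Dep 2 (27.6 CPM, the highest Dep value) and in Fed 2 (93.8 CPM, the lowest Fed value).

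The change from Fed to Dep differed from that of Mid against Pre for 1467 promoters. The largest differences above 0, on the log2 scale, were those of *Camp* (11.05), *S100a9* (5.89) and *S100a8* (5.17), neutrophil genes that were high in Dep 1 alone, and of *Chil1* (2.24), which was higher in every Dep library (1.17 to 4.68 CPM) than in any Fed library (0.43 to 1.1 CPM). The largest below 0 were those of the liver genes *Cyp2c70* (-12.15), *Ambp* (-11.12), *Ugt2b5* (-11.10) and *Cyp2c50* (-10.89). These liver genes were above 5 CPM in Fed 2 and Fed 3 and at or under 0.51 CPM in the other Dep and Fed libraries, and their own changes from Fed to Dep were -9.34 for *Cyp2c70* and -5.00 to -5.13 for the others. The rest of each difference is the fitted change from Pre to Mid (2.81 for *Cyp2c70* and 5.77 to 6.10 for the others), which did not pass, with means of 0 to 0.019 CPM in Pre and 0.147 to 0.298 CPM in Mid. Over the 19 hepatocyte genes the median was 3.64 from Pre to Mid and 2.78 from Pre to HiT. These fitted values depend on counts of 0.

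From the change of HiT against Pre it differed for 2473 promoters. Above 0 were *Camp* (9.60), *S100a9* (5.42), *S100a8* (4.99) and the upstream *Ppargc1a* promoter (3.72), which alone of these was high in every Dep library. Below 0 were the liver genes *Arg1* (-10.88), *Kng1* (-9.33), *Tat* (-8.94) and *Fga* (-8.83), highest among the Dep and Fed libraries in Fed 2 and Fed 3. *Arg1* was at -3.73 from Fed to Dep and rose by 7.15 from Pre (0.06 ± 0.05 CPM) to HiT (9.45 ± 4.65 CPM, n = 4, FDR 0.001 in edgeR's quasi-likelihood test). The changes of *Kng1*, *Tat* and *Fga* from Pre to HiT (3.72 to 4.77) did not pass, at means of 0.198 to 0.403 CPM in HiT. Of 19 hepatocyte genes, 11 were called lower in Dep than in Fed and none without Dep 1, Fed 2 and Fed 3 together. With single libraries left out the count ran from 0 without Fed 2 to 18 without Fed 1, with 1 without Fed 3, without Dep 1 or without Dep 3. The part of these libraries in other promoters' values was not tested beyond the counts given without them.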

How the results depend on the processing

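Of 154 named promoters, 100 kept their direction and their side of the threshold under every alternative chosen at the outset. When scaled by tag totals, 486 promoters were higher in Dep in place of 2005, the change differed from Mid against Pre for 19 in place of 1467 and from HiT against Pre for 661 in place of 2473, and 6 in place of 1207 differed between Fed and Pre. With only the groups compared in the fit, 899 differed from Mid against Pre and 631 between Fed and Pre. Leaving out each library gave 1630 to 2031 higher, 1455 (without Dep 4) to 2138 lower, 422 to 2045 for Mid against Pre, 1855 to 2775 for HiT against Pre and 192 to 1973 for Fed against Pre. The cause of these shifts was not tested, beyond the smaller number of samples in the fits. Alternatives without doubted libraries were added after seeing the data. Without Fed 2 and Fed 3 the number of promoters differing between Fed and Pre was 775, and without Dep 1 as well it was 676. In the same 2 fits the changes of *Arg1* (0.94 and 1.38) and *Cyp2c50* (0.79 and 1.21) turned positive, and in the second those of *Ambp* (0.40), *Kng1* (0.36) and *Camp* (-2.86) also turned, none of which rests on more than a few tags. *Camp* was at -2.10 without Dep 1 and between -2.10 and 11.67 without single libraries. With the replicate number as a replicate block, 1948 were higher and 2132 lower. The deviations of Dep and Fed libraries with the same number correlated at 0.18, 0.12, -0.04 and -0.16, so the numbers did not pair the samples, and 2 of 4 Dep libraries correlated best with their own number. The distance between groups exceeded that within by 0.638 to 0.996 without single libraries. Promoters under about 1 CPM are the least precise at these depths.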
